A study of Homo sapiens with 9 samples.

Results

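Aminoacyl-tRNA synthetases join each amino acid to its own tRNA, and their messenger RNAs were followed here from single HAP1 cells up to 1000 cells. The 36 genes were taken by name from the 26485 gene models counted in every library. They were 20 genes of the cytosolic enzymes and 16 genes of the mitochondrial enzymes, the latter with names ending in 2. HAP1, a human line with a near-haploid genome, carries the BCR-ABL1 fusion. Its cells were sorted into lysis buffer in groups of 1, 10, 100 or 1000, total RNA was isolated with the NAxtra magnetic beads, and libraries were made with a stranded SMART-Seq kit. There were 3 libraries of single cells and 2 each of 10, 100 and 1000 cells, all of wild type (WT) genotype with no treatment named, called Single Cell Rep 1 to 3, 10 Cell Rep 1 and 2, and so on below. The labels call the replicates biological without naming the cultures they came from, so p-values measure only the spread between these libraries, which may be technical.

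Cells need a synthetase for nearly every amino acid in the cytosol and again in the mitochondrion, which has its own ribosomes and tRNAs. The enzymes fall into class I and class II by the fold of their catalytic part. GARS and KARS, the glycyl and lysyl enzymes, serve both compartments from 1 gene each, and EPRS joins a glutamyl and a prolyl enzyme in a single chain. FARSA and FARSB are the subunits of the cytosolic phenylalanyl enzyme. Mitochondria have no glutaminyl enzyme: EARS2 first loads glutamate, which a transamidase built from QRSL1, GATB and GATC then turns into glutamine. Several cytosolic enzymes sit in a multi-synthetase complex held together by the scaffold proteins AIMP1, AIMP2 and EEF1E1. Many cytosolic synthetase genes are targets of ATF4, a transcription factor whose translation rises when amino acids are short, and WARS, the tryptophanyl enzyme, is also known as a gene induced by interferon.

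Promoter sequences are shown first, because some of these genes have a DNA element in common. RefSeq promoters on GRCh38.p14, from 250 bases before to 50 bases after each start, could be matched to 30 of the 36 genes, with 39 starts in all. The ATF4 element was searched as TGATGNAA on both strands. It was found in 8 of the 39 promoters (20.5%), in 8 genes, against 3.62% of 35116 promoters in the table. The core was TGATGCAA or its reverse complement TTGCATCA in 6 of the 8. The lines below show 30 bases around each match on the strand of the gene, with the element in capitals.
AARS, chr16:70289675-70289704, minus strand: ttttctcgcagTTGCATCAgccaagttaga
CARS, chr11:3057407-3057436, minus strand: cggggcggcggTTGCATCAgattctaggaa
GARS, chr7:30594834-30594863, plus strand: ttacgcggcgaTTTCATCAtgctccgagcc
IARS, chr9:92293692-92293721, minus strand: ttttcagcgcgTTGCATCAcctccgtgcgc
MARS, chr12:57488053-57488082, plus strand: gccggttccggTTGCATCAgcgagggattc
NARS, chr18:57621804-57621833, minus strand: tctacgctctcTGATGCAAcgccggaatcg
TARS, chr5:33440956-33440985, plus strand: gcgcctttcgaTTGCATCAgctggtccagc
YARS2, chr12:32756076-32756105, minus strand: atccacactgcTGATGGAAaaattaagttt

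In 6 of these genes the element lay within 33 bases of the start, while in AARS and YARS2 it began 187 and 197 bases before it. The interferon element was searched as GAAA, any 2 bases and GAAA again on both strands. It was found in 3 of the 39 promoters (7.69%), against 3.57% of all promoters. These belong to 2 of the 30 matched genes, WARS and EARS2, and the 2 promoters of EARS2 overlap and hold the same site. Both genes were also called higher in single cells (below), which was known when the element was chosen. Any part of the element in those calls was not tested. In WARS it lay 55 bases before an inner start that is 980 bases downstream of the outer start. The first line gives the 120 bases up to that inner start and the second the 30 bases around the match in EARS2, which is written on the opposite strand.
WARS, chr14:100375348-100375467, minus strand: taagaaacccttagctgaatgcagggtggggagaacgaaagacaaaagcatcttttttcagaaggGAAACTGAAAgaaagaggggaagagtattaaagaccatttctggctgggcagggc
EARS2, chr16:23557554-23557583, minus strand: cctgccacgcTTTCGCTTTCccaagctgaa

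A match is a description of the letters in these windows, not a site shown to be bound. The motifs were chosen after the values had been seen. The histidyl pair HARS and HARS2 starts back to back on chromosome 5, 85 bases apart. HARS fell in single cells and HARS2 did not pass the test (below), and the difference between them was not tested. The 84 bases between the starts are given here.
HARS and HARS2, chr5:140691371-140691454, plus strand: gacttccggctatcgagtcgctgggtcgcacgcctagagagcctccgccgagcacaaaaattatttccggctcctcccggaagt

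All 36 genes were counted in all 9 libraries, and the lowest value was 203 counts of PARS2 in Single Cell Rep 2. Totals ranged from 42842970 to 61645865 counts. The cytosolic genes together took 0.474% to 0.548% of a library and the mitochondrial genes 0.0781% to 0.0937%. HAP1's fusion partners BCR and ABL1 were present in every group, at a summed 13.8 to 44.2 CPM (counts after TMM scaling to a common library size) in single cells and 32.9 to 39.8 CPM in the other libraries. Of 6 blood lineage markers, 5 were at 0 counts in all single cells, and their sum did not exceed 1.38 CPM in any library. Of 8 fibroblast markers, LUM and DCN were at 0 counts in every library, and 3 reached 1 CPM in at least 1 library, PDGFRA, COL1A1 and THY1. The sum was 53.7 to 171 CPM in single cells against 121 to 145 CPM elsewhere. Most of it was PDGFRA, at 39.4 to 156 CPM in single cells and 110 to 134 CPM elsewhere. COL1A1 had 3.76 to 15.3 CPM in single cells and 8.53 to 16.8 CPM elsewhere. THY1 had 10.6 CPM in Single Cell Rep 2 and 0 CPM in the other single cells. Of the 6 plasma cell markers found, 2 reached 1 CPM in at least 1 library, SDC1 and PRDM1, and the sum was 42.6 to 61.9 CPM in single cells and 46.8 to 54.6 CPM elsewhere. The part of these cell types in the results was not tested.

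Cytosolic synthetase genes were expressed well above the mitochondrial ones. Per length, as CPM per kilobase of exon averaged over the 9 libraries, the median was 82.0 for the 20 cytosolic genes and 14.7 for the 16 mitochondrial genes, beside 6.97 for all 15603 genes tested. Of the cytosolic genes 18 lay above every mitochondrial gene, and all 20 lay above the median of all genes, as did 14 of the 16 mitochondrial genes. On this scale GARS was highest, at 145 ± 16.9 CPM per kilobase (SD, n = 9). TARS, the threonyl enzyme, followed at 117 ± 9.97 and NARS, the asparaginyl enzyme, at 113 ± 9.90. KARS stood at 104 ± 13.6 and EPRS at 78.3 ± 7.55 CPM per kilobase.

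At the lower end of the cytosolic group were the arginyl enzyme RARS at 40.8 ± 6.73, the cysteinyl enzyme CARS at 38.8 ± 7.13 and the histidyl enzyme HARS at 31.5 ± 4.87 CPM per kilobase (SD, n = 9). The mitochondrial isoleucyl enzyme IARS2, at 40.3 ± 5.08, was the only mitochondrial gene whose mean reached into this range. Next came RARS2 at 31.4 ± 4.63, just under the mean of HARS and not separable from it by these SDs, and CARS2 at 24.9 ± 4.68 CPM per kilobase. The lowest members were FARS2 at 10.7 ± 1.60, WARS2 at 5.43 ± 0.786 and PARS2, the prolyl enzyme, at 3.0 ± 0.875 CPM per kilobase. Neighbours in this order were often not separable. In the 6 libraries of more than 1 cell, the ranges of neighbouring genes overlapped in 13 of 19 cytosolic and in 10 of 15 mitochondrial pairs. Over all 9 libraries only FARS2 over WARS2 and WARS2 over PARS2 did not overlap.

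**Figure D1:**
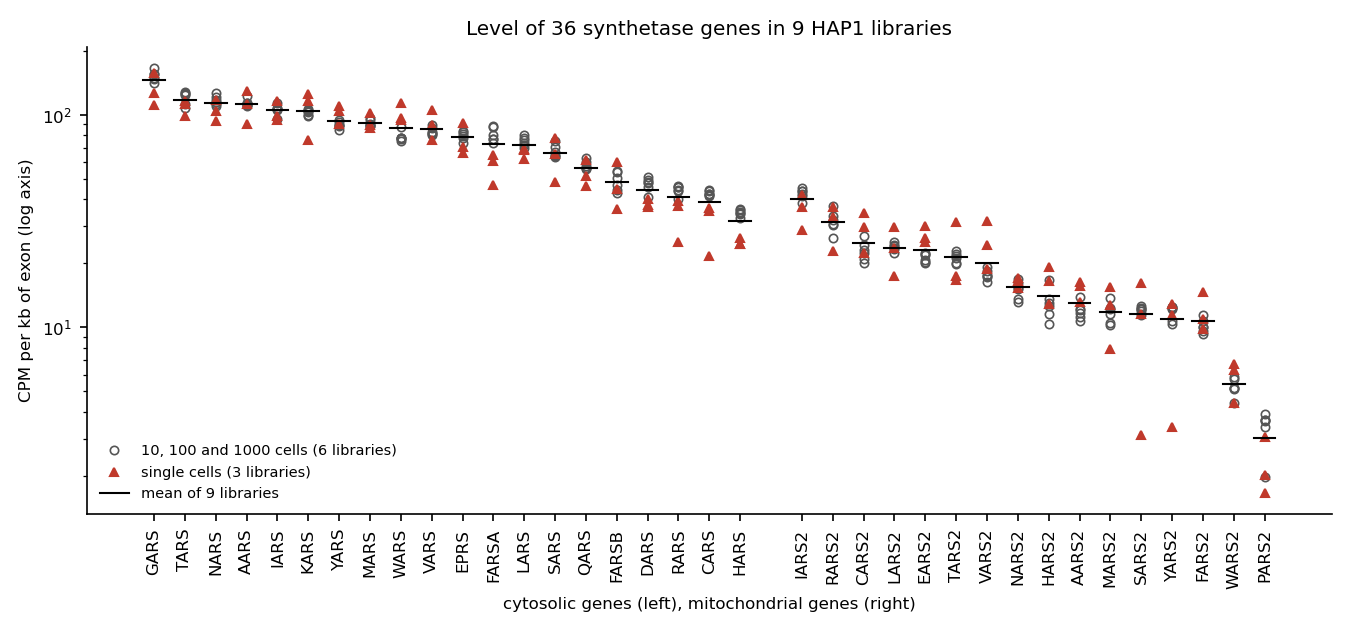
Level of each synthetase gene in CPM per kilobase of exon (log axis), with cytosolic genes on the left and mitochondrial genes on the right, each group ordered by the mean of 9 libraries (line). Open circles are the 6 libraries of 10, 100 and 1000 cells and red triangles the 3 single cells. The cytosolic means run from 145 (GARS) to 31.5 (HARS) and the mitochondrial means from 40.3 (IARS2) to 3.0 (PARS2), and single cells spread more widely, with 1 low triangle each for SARS2 and YARS2.

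The ATF4 element was common at the top of this order. The 5 cytosolic genes of highest mean level, GARS, TARS, NARS, AARS and IARS, all had it. KARS, the next in order, lacked it, and IARS was above KARS in only 4 of the 9 libraries. The motif was chosen after the values had been seen. Among the 16 cytosolic genes with a matched promoter, the median level was 113 CPM per kilobase in the 7 genes with the element (38.8 to 145) and 66.3 in the 9 genes without it (31.5 to 104), so that the ranges overlapped. CARS had the element and ranked 19 of 20. YARS, VARS, LARS and DARS had no matched promoter and are not in these counts.

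When a cytosolic gene was set against its mitochondrial partner, the cytosolic one was nearly always higher. Over 17 pairs, the ratio of CPM per kilobase averaged over the 6 libraries of more cells had a median of 5.57 and ran from 1.41 for RARS over RARS2 to 25.0 for EPRS over PARS2. The last was 42.3 in 100 Cell Rep 1 and 19.6 to 23.3 in the others of the 6. Of the 17 pairs, 13 each join 1 cytosolic gene to 1 mitochondrial gene. EPRS and FARS2 each enter more than 1 pair, so that the 17 are not all separate. In 15 of the 17 pairs the cytosolic gene was higher in all 9 libraries. In each of the remaining pairs 1 single cell turned the order. CARS over CARS2 was 0.730 in Single Cell Rep 1, with 1.06 and 1.58 in the other single cells and 1.57 to 2.21 in the 6 libraries. RARS over RARS2 was 0.756 in Single Cell Rep 3, with 1.07 and 1.64 in the other single cells and 1.2 to 1.53 in the 6 libraries.

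Pairs also differed in how far single cells departed from the rest. FARSA over FARS2 was 5.89, 4.13 and 4.74 in Single Cell Rep 1 to 3 and 7.56 to 9.39 in the 6 libraries. NARS over NARS2 was 6.89, 6.27 and 6.12 in the single cells and 7.01 to 8.26 in the 6 libraries. EPRS over EARS2 was 2.80, 2.52 and 3.03 in the single cells and 3.31 to 4.11 in the 6 libraries. In these 3 of the 17 pairs every single cell lay below all 6 libraries, and in 0 pairs did every single cell lie above them. A share over all genes was not computed for ratios. For levels of single genes it was 10.1% below and 4.94% above. FARSA and EARS2 were also called by themselves (below), so that their pairs are not separate results. Summed over the groups, the cytosolic to mitochondrial ratio of CPM per kilobase was 5.24, 5.09 and 5.55 in the single cells and 5.54 to 6.32 in the 6 libraries, so that the groups met at the edge.

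**Figure D2:**
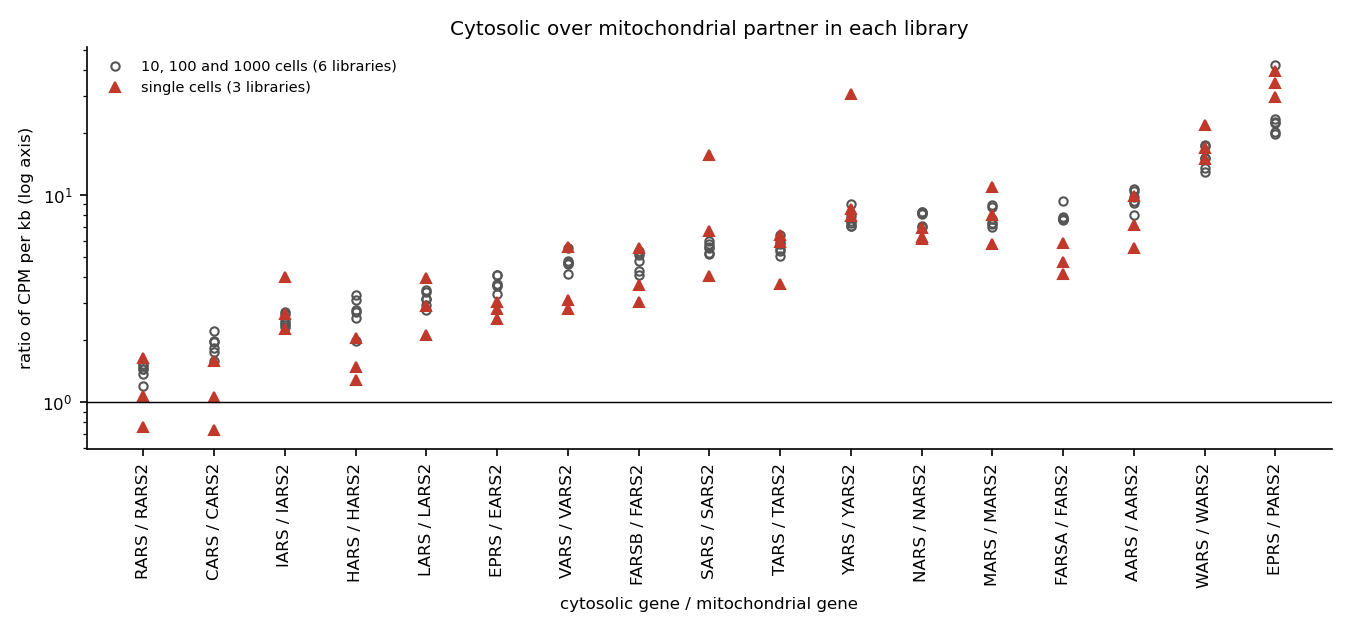
Ratio of CPM per kilobase of each cytosolic gene to its mitochondrial partner (log axis), in 17 pairs ordered by the mean of the 6 libraries of more cells (open circles), with the 3 single cells as red triangles and a line at 1. Ratios lie above 1 except for 1 single cell in each of the pairs RARS / RARS2 and CARS / CARS2, and the high triangles are YARS / YARS2 at 30.6 and SARS / SARS2 at 15.5.

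The main comparison asked which synthetase genes differ when the input is 1 cell. Most did not pass the test. In single cells against the 6 libraries of 10, 100 and 1000 cells, WARS and EARS2 rose and FARSA and HARS fell, each by 27.4% to 29.3% of its mean level. With edgeR's quasi-likelihood test, 2 of 36 members were called higher, beside 2.22% of all 15603 genes, and 2 of 36 were called lower, beside 4.45%. The median log2 fold change was -0.11 over the 20 cytosolic genes, of which 5 lay above 0, and 0.07 over the 16 mitochondrial genes, of which 10 lay above 0, beside 0.01 over all genes tested, of which 51.2% lay above 0. The cytosolic median was -0.19 without Single Cell Rep 1, and the mitochondrial median was 0.20 without Single Cell Rep 3 and -0.0037 with a spread per cell number in limma voom. All member changes lay between -0.59 and 0.50 on the log2 scale.

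WARS had 335, 280 and 287 CPM in the order Single Cell Rep 1 to 3, 230 and 228 CPM with 10 cells, 260 and 230 CPM with 100 cells and 231 and 223 CPM with 1000 cells. Every single cell lay above every other library. The log2 fold change was 0.36 ± 0.08 (SE; adjusted p = 0.0266, edgeR), a fold of 1.28. The gene lies on hg38 at chr14:100333788-100376343, minus strand.

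EARS2, the enzyme that loads glutamate in mitochondria, had 105, 110 and 126 CPM across the single cells, 92.5 and 93.2 CPM with 10 cells, 85.2 and 91.3 CPM with 100 cells and 87.1 and 84.3 CPM with 1000 cells. Again the groups did not overlap. The log2 fold change was 0.35 ± 0.09 (SE; adjusted p = 0.0411, edgeR), a fold of 1.27. The gene lies at chr16:23522013-23557375, minus strand.

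FARSA had 119, 112 and 86.4 CPM across the single cells, 161 and 164 CPM with 10 cells, 142 and 143 CPM with 100 cells and 137 and 149 CPM with 1000 cells. All single cells were below all other libraries. The log2 fold change was -0.50 ± 0.11 (SE; adjusted p = 0.0291, edgeR), a fold of 0.707. The gene lies at chr19:12922470-12933744, minus strand. FARSB, whose product pairs with it, had 161, 119 and 96.7 CPM across the single cells and 115 to 146 CPM in the 6 libraries, with a log2 fold change of -0.06 ± 0.15 (adjusted p = 0.852, edgeR), and the difference between the subunits was not tested.

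HARS had 56.6, 56.8 and 60.4 CPM across the single cells, 75.5 and 82.5 CPM with 10 cells, 78.5 and 83.4 CPM with 100 cells and 79.1 and 80.1 CPM with 1000 cells. Of the 20 cytosolic genes it was the lowest in level and the most even among single cells. The log2 fold change was -0.46 ± 0.09 (SE; adjusted p = 0.0229, edgeR), a fold of 0.725. The gene lies at chr5:140673904-140691727, minus strand, and its model shares 302 bases with that of HARS2 on the opposite strand, which the authors' strand-specific counting keeps apart. HARS2 had 43.3, 50.5 and 33.5 CPM across the single cells and 26.9 to 43.6 CPM in the 6 libraries, with a log2 fold change of 0.33 ± 0.18 (adjusted p = 0.306, edgeR). The difference between HARS and HARS2 was not tested.

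**Figure D3:**
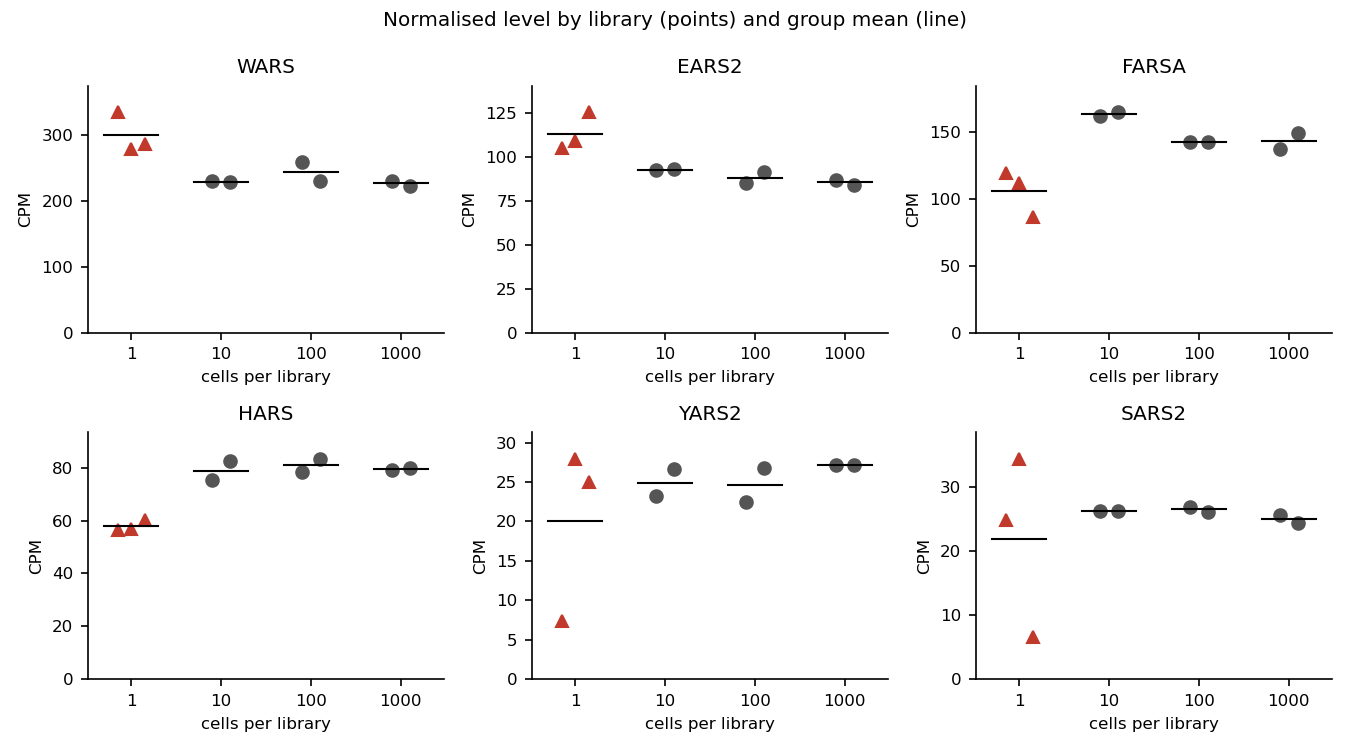
CPM by library of WARS and EARS2 (called higher in single cells), FARSA and HARS (called lower) and YARS2 and SARS2 (1 low single cell each), against cells per library, with points for libraries and lines for group means on axes that start at 0. WARS single cells sit at 280 to 335 CPM against 223 to 260 CPM in the other libraries, and HARS single cells at 56.6 to 60.4 CPM against 75.5 to 83.4 CPM.

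Leaving out single libraries or modelling the spread apart ended these calls. Without 100 Cell Rep 2, 1000 Cell Rep 1 or 1000 Cell Rep 2 no member was called (smallest adjusted p of a member 0.0683, 0.0674 and 0.0672, edgeR), and 0 members were called when each cell number had its own spread (limma voom, smallest adjusted p 0.626) or in a fit of all 9 libraries in 4 groups (edgeR, smallest adjusted p 0.11).

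Of the other cytosolic genes, 0 passed the test. CARS had 61.2, 103 and 99.7 CPM across the single cells and 117 to 125 CPM in the 6 libraries, with a log2 fold change of -0.45 ± 0.14 (adjusted p = 0.0759, edgeR). YARS, the tyrosyl enzyme, had a log2 fold change of 0.17 ± 0.07 (adjusted p = 0.169, edgeR) and VARS, the valyl enzyme, one of 0.11 ± 0.09 (adjusted p = 0.534, edgeR). The genes serving both compartments or joining 2 enzymes had log2 fold changes of 0.04 ± 0.13 for KARS, -0.07 ± 0.09 for EPRS and -0.21 ± 0.10 for GARS, none past the threshold (adjusted p = 0.879, 0.697 and 0.213, edgeR).

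Among the mitochondrial genes, VARS2, the valyl enzyme, had the highest value, with 118, 70.2 and 91.4 CPM across the single cells and 60.8 to 71.7 CPM in the 6 libraries, so that the groups overlapped through 1 single cell. Its log2 fold change was 0.50 ± 0.14 (adjusted p = 0.058, edgeR). CARS2 had 0.33 ± 0.16 (adjusted p = 0.224, edgeR). In the other direction stood PARS2 with -0.59 ± 0.37, YARS2 with -0.35 ± 0.33 and IARS2 with -0.25 ± 0.11 on the log2 scale, none of them called (adjusted p = 0.361, 0.574 and 0.209, edgeR). At an unadjusted p under 0.05 there were 11 members, 2 cytosolic genes higher, 6 cytosolic genes lower and 3 mitochondrial genes higher. That is 30.6% of the 36, beside 24.5% of all genes tested.

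**Figure D4:**
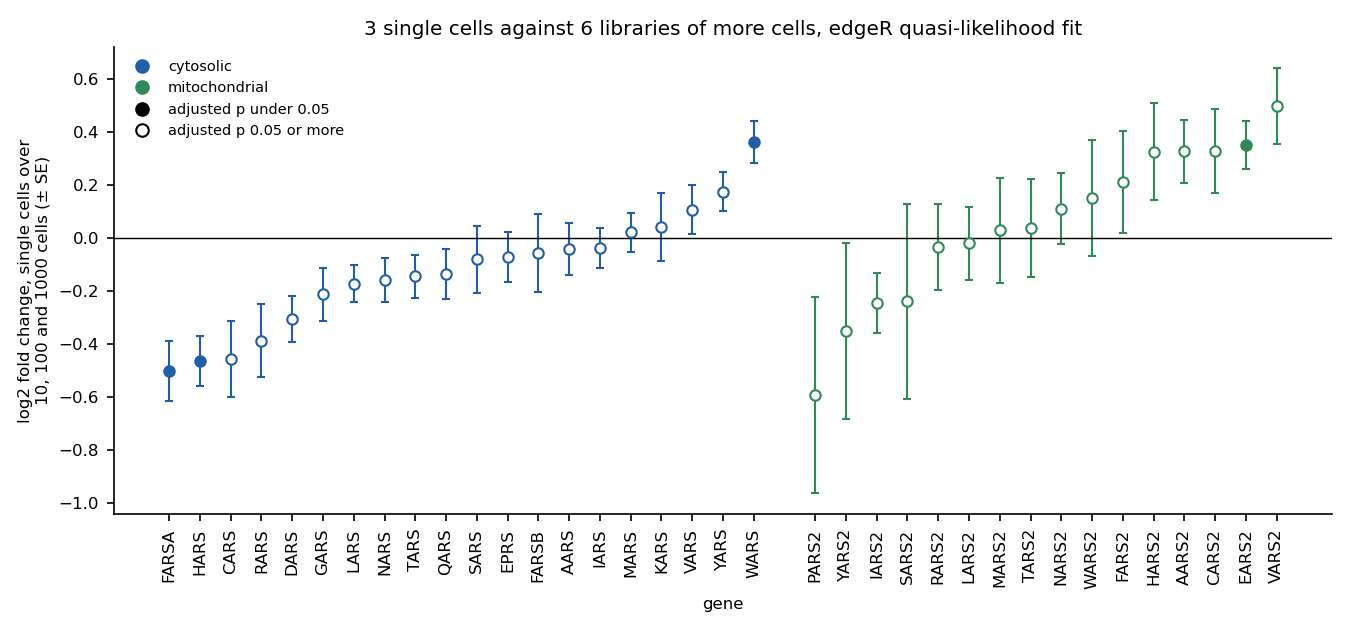
Log2 fold change of each synthetase gene, 3 single cells over the 6 libraries of 10, 100 and 1000 cells, with its SE, cytosolic genes in blue and mitochondrial genes in green, each group in order of the value. Filled points (FARSA, HARS, WARS and EARS2) have an adjusted p under 0.05 in the edgeR fit, and the values run from -0.59 (PARS2) to 0.50 (VARS2).

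Counted without a model, all 3 single cells lay above all 6 other libraries for 2 of the 36 genes, WARS and EARS2, beside 4.94% of all genes tested. They lay below them for 6 of the 36, CARS, DARS, FARSA, HARS, LARS and RARS, beside 10.1% of all genes. All 6 were cytosolic. DARS, the aspartyl enzyme, had 127, 116 and 119 CPM across the single cells and 130 to 160 CPM in the 6 libraries. LARS, the leucyl enzyme, was at 330, 301 and 336 CPM against 337 to 388 CPM, and RARS at 84.3, 79.5 and 53.6 CPM against 85.6 to 98.9 CPM. By enzyme class, 2 of 18 class I genes (WARS and EARS2) were called higher and 0 lower, beside 2.22% and 4.45% of all genes. Of 17 class II genes 0 were called higher and 2 lower (FARSA and HARS). These are the calls given above, grouped again, and a difference between the classes was not tested. The median log2 fold change was 0.00 for class I and -0.08 for class II, EPRS being counted in neither class.

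Against 1000 cells alone, none of the 36 genes was called in any direction by edgeR. In single cells against 1000 cells the share of all genes called was 0%, and 4 members had an unadjusted p under 0.05, or 11.1%, beside 7.91% of all genes. The medians were -0.15 for cytosolic and 0.00 for mitochondrial genes on the log2 scale. In 10 cells against 1000 cells the share of all genes called was also 0%, 3 members (8.33%) had an unadjusted p under 0.05, beside 11.2% of all genes, and members ranged from -0.29 (NARS2) to 0.19 (FARSA). In 100 cells against 1000 cells the share called was again 0%, 1 member (2.78%) had an unadjusted p under 0.05, beside 2.01% of all genes, and members ranged from -0.50 (PARS2) to 0.16 (SARS). DESeq2 and limma voom called 0 members in these 3 comparisons as well, but DESeq2 did not give every member an adjusted p. In single cells against 1000 cells it gave one to 25 members, and called 1.01% of 3755 genes higher and 0.293% lower. In 10 cells against 1000 cells it gave one to 35 members, and called 1.04% of 8859 genes higher and 1.15% lower. The comparisons share the 2 libraries of 1000 cells and are not independent.

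Called or not, synthetase genes varied less among single cells than the median of all genes. The SD of log2 CPM over the 3 single cells had a median of 0.22 over the cytosolic genes, 0.34 over the mitochondrial genes and 0.56 over all genes tested. Within a range of level the difference narrowed. At 100 to 1000 CPM the median SD was 0.22 for the 18 cytosolic genes and 0.23 for all 2278 genes, and 9 of the 18 lay above the latter. At 10 to 100 CPM it was 0.34 for the 14 mitochondrial genes and 0.48 for all 7534 genes, with 4 of the 14 above. Over the 6 libraries of more cells the medians were 0.08 for cytosolic genes, 0.13 for mitochondrial genes and 0.19 for all genes, and single cells had the larger SD in 19 of 20 cytosolic and 15 of 16 mitochondrial genes.

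The most even cytosolic genes among single cells were HARS with an SD of 0.05, DARS with 0.07 and LARS with 0.09 on the log2 scale. The least even were CARS with 0.42, KARS with 0.39 and FARSB with 0.37. KARS had 275, 166 and 255 CPM across the single cells and 216 to 232 CPM in the 6 libraries, so that the single cells lay on both sides of the rest. Among the mitochondrial genes NARS2 was the most even, with an SD of 0.08 and 42.8, 41.6 and 38.5 CPM in the single cells, before EARS2 with 0.13 and AARS2 with 0.16. TARS2, with an SD of 0.51, had 87.5, 48.8 and 46.3 CPM across the single cells and 55.1 to 63.5 CPM in the 6 libraries.

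SARS2 and YARS2 varied most, each through 1 cell. SARS2, the seryl enzyme of mitochondria, had 6.65 CPM (347 counts) in Single Cell Rep 3, against 24.8 and 34.4 CPM in the other single cells and 24.4 to 26.9 CPM in the 6 libraries, an SD of 1.25 among the single cells. YARS2, the tyrosyl enzyme of mitochondria, had 7.36 CPM (381 counts) in Single Cell Rep 1, against 27.9 and 25.0 CPM in the other single cells and 22.4 to 27.2 CPM in the 6 libraries, an SD of 1.06. The cytosolic partner SARS was at 380, 320 and 236 CPM across the single cells and 309 to 369 CPM in the 6 libraries. Like SARS2, it was lowest in Single Cell Rep 3, where it lay below every other library. YARS was at 322, 342 and 282 CPM across the single cells and 264 to 293 CPM in the 6 libraries. It was not low in Single Cell Rep 1, the cell with little YARS2.

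SARS2 and YARS2 were the members whose log2 CPM in 1 library was more than 1 away from the average of the other 8 and outside their range. That made 1 of 36 in Single Cell Rep 1, beside 16.2% of all genes, 0 of 36 in Single Cell Rep 2, beside 16.5%, and 1 of 36 in Single Cell Rep 3, beside 22.5%. With a distance of 0.5 the members were 5, 6 and 5, or 13.9%, 16.7% and 13.9%, beside 29.3%, 28.9% and 36.7% of all genes.

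**Figure D5:**
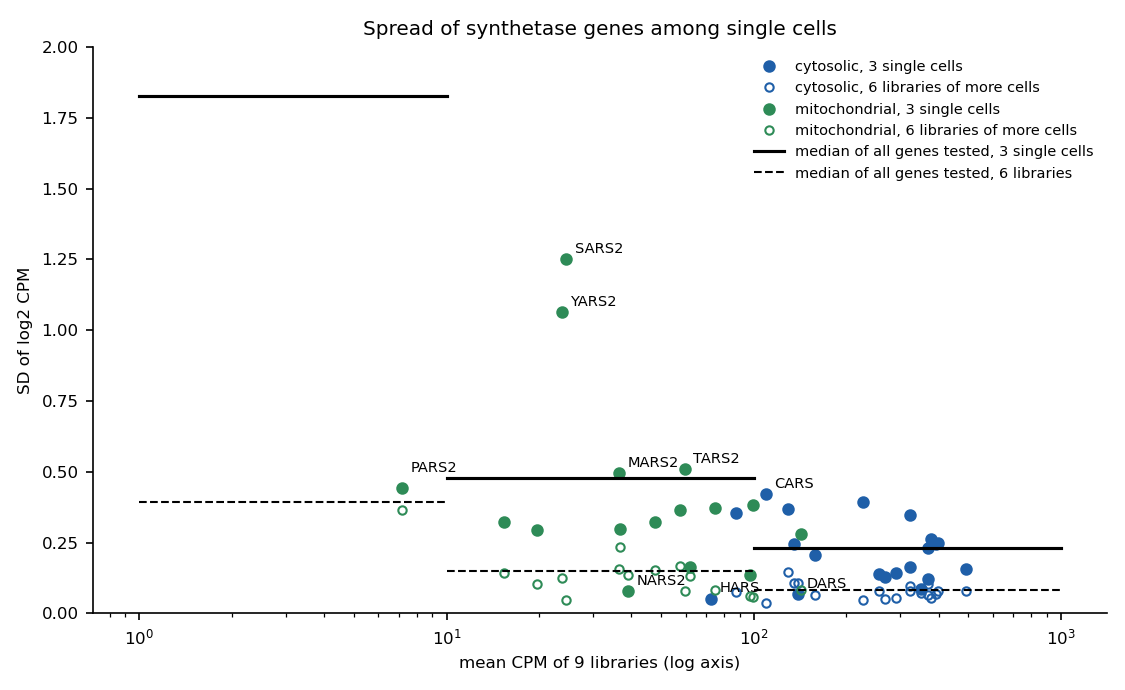
SD of log2 CPM of each synthetase gene over the 3 single cells (filled) and over the 6 libraries of more cells (open) against its mean CPM (log axis), cytosolic in blue and mitochondrial in green. Lines give the median SD of all genes tested in the same range of level, solid for single cells and dashed for the 6 libraries. SARS2 (1.25) and YARS2 (1.06) lie far above the line of their range at 0.48, and HARS (0.05) far below it.

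The machinery around the synthetases was also mostly without calls in single cells against the 6 libraries. The share of all genes called was 2.22% higher and 4.45% lower in that comparison, and in 5 of its 19 alternatives, named above where the synthetase calls ended, 0 of all genes were called, so that every call given here for PUS1, EEFSEC, PRORSD1P, ATF5 and TRIB3 ended there too. Of the 3 scaffolds of the multi-synthetase complex 0 were called, with log2 fold changes of -0.18 ± 0.12 for AIMP1, -0.22 ± 0.15 for AIMP2 and -0.62 ± 0.24 for EEF1E1 (adjusted p = 0.391, 0.438 and 0.132, edgeR). Of the 8 synthetases in that complex 0 were called, and their median was -0.10. QRSL1, GATB and GATC of the transamidase and MTFMT, which formylates the initiator tRNA, had 0 calls among 4 tested. QRSL1 had 48.3, 48.7 and 47.0 CPM across the single cells and 34.0 to 42.1 CPM in the 6 libraries, with a log2 fold change of 0.33 ± 0.13 (adjusted p = 0.134, edgeR). The elongation factors that carry charged tRNA to the ribosome, EEF1A1, EEF1A2 and TUFM, had 0 calls and values from -0.09 to 0.05.

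Of 26 genes of tRNA maturation 1 was called, PUS1, a pseudouridine synthase, which fell by 0.75 ± 0.13 on the log2 scale (adjusted p = 0.0185, edgeR). It had 40.6, 34.7 and 38.6 CPM across the single cells and 58.5 to 77.9 CPM in the 6 libraries. Of 4 genes of the selenocysteine tRNA pathway 1 rose, EEFSEC, the elongation factor of that tRNA, by 0.75 ± 0.18 (adjusted p = 0.0347, edgeR), with 37.2, 30.1 and 41.4 CPM in the single cells and 16.9 to 25.9 CPM in the 6 libraries. Of 8 genes of proofreading and release 1 fell, PRORSD1P, a pseudogene of that family, with 0, 0 and 0.115 CPM in the single cells and 1.79 to 2.63 CPM in the 6 libraries (adjusted p = 0.0305, edgeR).

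ATF4 itself had 417, 444 and 405 CPM across the single cells and 423 to 457 CPM in the 6 libraries, and was not called (log2 fold change -0.06 ± 0.06, adjusted p = 0.578, edgeR). Of the 20 genes made up of ATF4 and its targets outside the synthetases, 2 rose and 0 fell, beside 2.22% and 4.45% of all genes, with a median of -0.15 and 8 above 0. Their log2 fold changes ran from -2.35 to 0.95, so that the largest change in size was a decrease that did not pass the test. The ones that rose were ATF5, a factor related to ATF4, by 0.79 ± 0.20, and TRIB3, a pseudokinase, by 0.95 ± 0.16 on the log2 scale (adjusted p = 0.0378 and 0.0184, edgeR). Of the 12 synthetases commonly listed as ATF4 targets 1 rose, WARS, and 0 fell, with a median of -0.08 and 3 above 0. Of the 8 genes with the ATF4 element shown above 0 were called. The 7 cytosolic ones had a median log2 fold change of -0.14 with 1 above 0, and the 9 cytosolic genes with a matched promoter that lacked it had a median of -0.08 with 2 above 0.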

How the data were processed

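RNA of 9 samples of sorted HAP1 cells was sequenced. According to the submitters' processing notes and the file headers, the authors' pipeline ran from FastQC 0.11.9 (read quality) and Trim Galore 0.6.7 (trimming) to alignment on hg38 by HISAT2 2.2.1 and SAMtools 1.16.1, and ended with featureCounts (Subread 2.0.6). The annotation release is not given in the sources used here. The deposited values are whole, unnormalized read counts per gene model. Per the file headers, counting used the strand, each mate was counted singly, and reads mapped to several places or to several genes were left out, so near-identical copies lose reads. Without molecular identifiers, reads of 1 molecule can be counted many times.

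The tools were edgeR 4.0.16, DESeq2 1.42.0 and limma 3.58.1 under R 4.3.3, with pandas 2.3.3 under Python 3.11.15. TMM set the library sizes, and a prior count of 2 entered log2 CPM. The test was edgeR's quasi-likelihood F test (older setting, legacy) over all genes that filterByExpr kept, with Benjamini-Hochberg adjusted p under 0.05. SE is the size of the log2 fold change divided by the square root of F. Levels between genes are CPM per kilobase of exon on the primary chromosomes, because the deposited lengths of CARS, VARS and VARS2 also hold copies on alternate sequences, at 2.00, 6.20 and 6.00 times the length. Fits were tested on simulated data. Members and lists were chosen with earlier results of these data known. Values were named for members called in a comparison or standing apart in a single cell, for the 3 highest and 3 lowest members of each group in level, spread and fold change, and for GARS, KARS and EPRS. From the other lists the called genes and up to 3 more were named. Listed genes under other symbols (PET112, YBAK) were not in the count files. Protein sequences were not analysed here.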

Additional observations from a re-analysis of the deposited data

Results flagged for a closer look

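Among the 6 libraries of more than 1 cell, 3 of 36 genes had 1 library far from the others by Dixon's test, and chance flags about 1 in 20. In all of them it was 100 Cell Rep 1. AARS was at 409 CPM there and at 368 to 381 CPM in the other 5 libraries. WARS was at 260 CPM there and at 223 to 231 CPM in the others. PARS2 was at 4.73 CPM there and at 8.08 to 9.38 CPM in the others.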

How the results depend on the processing

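In single cells against 10, 100 and 1000 cells, the 2 members higher and 2 lower became 4 and 4 with DESeq2 (7.08% and 10.2% of all genes) and 0 and 0 with limma voom with a spread per cell number or with the edgeR fit of all 9 libraries in 4 groups. Without a filter on low counts 1 was higher, as EARS2 was lost, and 2 were lower (1.20% and 2.11% of all genes). Leaving out 1 library gave 0 to 5 higher and 0 to 6 lower. It was 0 and 0 without 100 Cell Rep 2, 1000 Cell Rep 1 or 1000 Cell Rep 2, 2 and 6 without Single Cell Rep 1 (6.96% and 10.9% of all genes), 5 and 6 without Single Cell Rep 2 (8.48% and 11.3%), 4 and 4 without Single Cell Rep 3 (5.99% and 8.97%), 1 and 1 without 10 Cell Rep 1 (1.40% and 3.37%), 1 and 2 without 10 Cell Rep 2 (1.35% and 2.98%), and 1 and 2 without 100 Cell Rep 1 (1.26% and 3.14%). In the 5 alternatives with no member called, 0 of all genes were called. Single cells against 1000 cells gave 0 to 0 higher and 0 to 0 lower. In 10 against 1000 cells the range was 0 to 3 higher and 0 to 6 lower, with 3 and 6 without 10 Cell Rep 1 (12.6% and 13.1% of all genes) and 2 and 3 without 10 Cell Rep 2 (13.5% and 15.9%). In 100 against 1000 cells it was 0 to 7 higher and 0 to 7 lower, with 7 and 7 without 100 Cell Rep 2 (14.5% and 16.0% of all genes). In these fits the lone library was assumed to vary like the others. The cause was not tested.

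Same-numbered libraries did not deviate together: over 12 pairs the correlation ran from -0.038 to 0.025 and exceeded 0.1 in 0. With a replicate block, which leaves out Single Cell Rep 3, 3 members were called higher (WARS, YARS, CARS2) and 3 lower (CARS, FARSA, HARS) in single cells against 10, 100 and 1000 cells, beside 4.79% and 7.61% of all genes, and 0 in the other 3. With 1 library left out, the log2 fold change of VARS ran from -0.020 (without Single Cell Rep 2) to 0.21 and that of YARS2 from -0.66 to 0.046 (without Single Cell Rep 1), so that both turned in sign, and the other 10 members examined kept their direction in every alternative. The median log2 fold change of the cytosolic genes ran from -0.19 (without Single Cell Rep 1) to -0.081 (without Single Cell Rep 3), and that of the mitochondrial genes from -0.0037 (limma voom with a spread per cell number) to 0.20 (without Single Cell Rep 3). Members standing apart in a single cell numbered 15 in place of 2 with a distance of 0.5. With deposited lengths CARS was at 19.4, VARS at 13.8 and VARS2 at 3.35 CPM per kilobase in place of 38.8, 85.7 and 20.1, the other 33 members kept their values, and 17 in place of 18 cytosolic genes lay above every mitochondrial gene. The ratio of the cytosolic to the mitochondrial median level was 5.56 and ran from 5.56 to 5.59 under TPM, DESeq2 size factors and deposited lengths. The median spreads among single cells were 0.22 for cytosolic genes and 0.34 to 0.36 for mitochondrial genes with a prior count of 0.5 or after thinning to the smallest total. The edgeR fit without the older setting and the deposited lengths were tried after seeing the data.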
